A study of Mus musculus with 40 samples.

Results

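Expression of 10 mouse genes was followed across sorted cells of colon tumors, healthy colon and blood. The genes were 5 protease inhibitors, Timp1, Timp2, Timp3, Reck and Slpi, and 5 metalloproteinases of the ADAM family, Adam8, Adam9, Adam10, Adam17 and Adam19. They were picked by name for what their proteins do, with earlier results of these data known. All 10 were found among the 45706 genes of the tables. The study asked how neutrophils of colon adenomas restrain T cells, with a secreted metalloproteinase as the enzyme of interest, so the inhibitors and the sheddases belong to the same protease network.

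RNA was sequenced from 40 libraries in 10 groups of 4. The 24 libraries of tumor-bearing mice came from Cdx2CreERT2 - Apc fl/fl mice that received 25 mg/kg tamoxifen at an age of 8 to 10 weeks, in which Cre driven by Cdx2 removes floxed Apc in the gut epithelium. Neutrophils, monocytes, epithelial cells and stromal cells were sorted from their tumors, and neutrophils and monocytes from their blood. The 16 libraries of healthy mice held neutrophils and monocytes of blood and epithelial and stromal cells of colon. Healthy mice carried no transgene, received no agent and were labelled C57Bl6, whereas tumor-bearing mice were labelled C57Bl6/Sv with a number from 129 to 152 that differed in every library. Strain, transgene and tamoxifen therefore cannot be told apart from the tumor in any comparison with healthy mice. Neutrophils were gated as CD45+ EpCAM- CD11b+ MHCII- Ly6G+ with low Ly6C, monocytes by the same markers with high Ly6C and no Ly6G, epithelial cells as CD45- EpCAM+, and stromal cells as CD45- EpCAM-. The titles of 4 libraries name a pair of mice: healthy blood monocyte replicates 2, 3 and 4 and tumor-bearing blood neutrophil replicate 3. Each blood monocyte library of tumor-bearing mice names a single mouse. Several libraries share a mouse across cell types or between tumor and blood, so p-values here measure the spread between these libraries.

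TIMPs are secreted inhibitors that block the active site of matrix metalloproteinases and of some ADAMs, and TIMP3, which binds the extracellular matrix, is the member known to block ADAM17. RECK is a membrane-anchored inhibitor of matrix metalloproteinases, and SLPI is a secreted inhibitor of neutrophil elastase and cathepsin G. ADAMs are membrane proteases that cut other surface proteins near the membrane, a step called shedding, by which ADAM17 frees TNF and EGF receptor ligands and ADAM10 starts Notch cleavage.

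Counts on genes totaled 10717873 to 38002939 per library, and mitochondrial genes took 5.34% to 83.9% of them. Levels below are RPKM, read counts scaled by the authors to gene length and library, and fold changes are from edgeR on counts. Some libraries stood apart from their labels. In replicate 1 of the tumor neutrophils, 6 neutrophil markers summed to 1904 RPKM against 5945 to 12237 in the other 3 replicates, and its 10 epithelial markers reached a median of 92.7% of the tumor epithelial mean. Tumor stromal replicates 1 and 2 had 5 endothelial markers summing to 4.36 and 3.69 RPKM, against 108 and 117 in replicates 3 and 4. In all 4 tumor stromal libraries the 8 fibroblast markers summed to 6.07 to 24.7 RPKM, against 369 to 2027 in healthy stroma, although each marker was above 0. Healthy epithelial replicate 4 had the 83.9% of mitochondrial counts. Apc, the deleted gene, read 5.97 to 6.51 RPKM in tumor epithelial cells and 0.343 to 3.34 RPKM in healthy ones, and counts over a whole gene do not show the loss of floxed exons. In bulk samples fewer cells of a type and less RNA per cell cannot be told apart.

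Each gene had its own pattern over the 10 groups. The TIMPs divided between compartments. Timp1 was highest in tumor monocytes at 6.39 ± 0.611 RPKM (SD, n = 4), Timp2 in healthy stroma at 74.4 ± 69.6 RPKM and Timp3 in healthy stroma at 51.3 ± 1.80 RPKM. Reck was also highest in healthy stroma, at 8.94 ± 6.22 RPKM, with the second highest level in blood neutrophils of tumor-bearing mice at 1.08 ± 0.394 RPKM. Slpi and Adam8 shared the same first place, tumor neutrophils, with 95.1 ± 31.5 RPKM for Slpi and 80.3 ± 32.8 RPKM for Adam8. Adam19 was highest in blood neutrophils of tumor-bearing mice at 46.2 ± 4.61 RPKM. The remaining ADAMs were flatter. Adam9, Adam10 and Adam17 were highest in tumor monocytes, at 7.27 ± 2.21, 10.5 ± 4.15 and 11.6 ± 1.69 RPKM, and in each of them every group overlapped the next one down the order. The first and the second group did not overlap for Timp2, Timp3, Reck and Adam19. The highest group was unchanged for all 10 genes when levels were taken as log2 CPM.

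**Figure D1:**
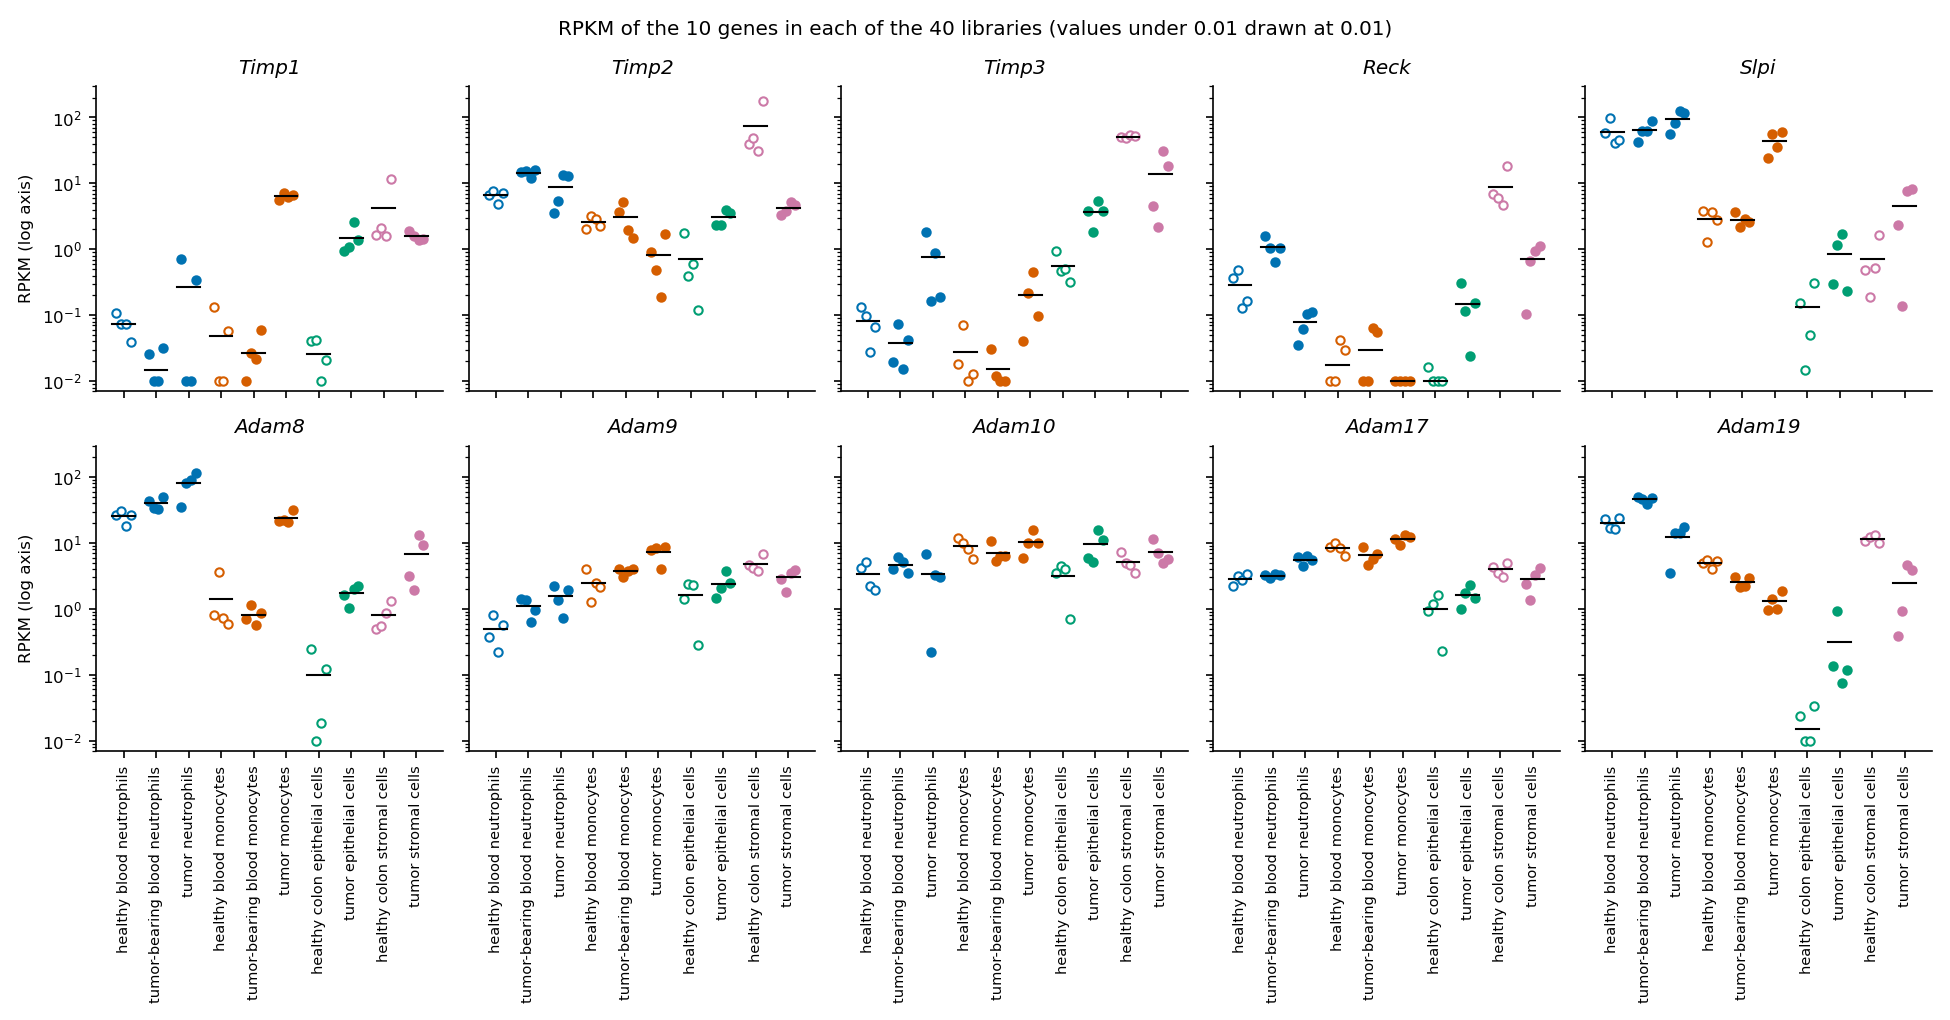
RPKM of each of the 10 genes on a log axis, with 1 point per library and the 10 groups along the horizontal axis; values under 0.01 are drawn at 0.01. The 4 tumor monocyte points of Timp1 lie between 5.68 and 7.11 RPKM while the blood monocyte points of tumor-bearing mice lie under 0.0602 RPKM, and Slpi and Adam8 have their highest points in neutrophils.

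The plot of all levels includes monocytes of tumor and of blood. Tumor monocytes differed from blood monocytes of the same kind of mice in 6 of the 9 members that could be tested, all of them higher in the tumor. Of these 6, Timp1 and Timp3 were not tested when at least 10 counts were required in every library. Across all 15280 genes tested, 10.9% were higher in tumor monocytes at an adjusted p under 0.05 and 17.1% passed in either direction. The median log2 difference was 1.21 over the 9 members and -0.03 over all genes. Reck had too few counts to be tested, with 0 to 3 counts in every tumor monocyte library.

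Timp1, which blocks most matrix metalloproteinases, read 5.68, 7.11, 6.15 and 6.61 RPKM in the 4 tumor monocyte libraries. In blood monocytes of tumor-bearing mice it read 0.000155, 0.0267, 0.0214 and 0.0601 RPKM, which are 0, 2, 1 and 3 counts. The lowest tumor library was far above the highest blood library. Tumor monocytes held 1471 counts and blood monocytes 6, a depth-scaled ratio of 215 with an exact 95% counting interval of 98.6 to 587, and the edgeR adjusted p was 4.3e-05. Timp1 passed the filter on low counts through the tumor libraries alone, and the interval covers counting error only.

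Slpi, the inhibitor of neutrophil serine proteases, read 24.02, 55.5, 36.3 and 60.9 RPKM in tumor monocytes and 3.62, 2.18, 2.89 and 2.57 RPKM in blood monocytes of tumor-bearing mice. The groups did not overlap. The log2 fold change was 4.21 ± 0.32 (SE, edgeR adjusted p = 1.87e-05). Adam8, a sheddase of leukocytes that neutrophils store in granules, read 21.3, 22.5, 21.02 and 31.5 RPKM in tumor monocytes against 0.708, 1.14, 0.566 and 0.873 RPKM in blood monocytes. These groups were also apart, with a log2 fold change of 5.12 ± 0.29 (edgeR adjusted p = 5.39e-06). Both genes were also high in neutrophils. All 6 neutrophil markers were detected in every monocyte library, and they summed to 22.4 to 39.99 RPKM in tumor monocytes and 78.8 to 187 RPKM in blood monocytes of tumor-bearing mice. The part of neutrophils in these values was not tested.

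**Figure D2:**
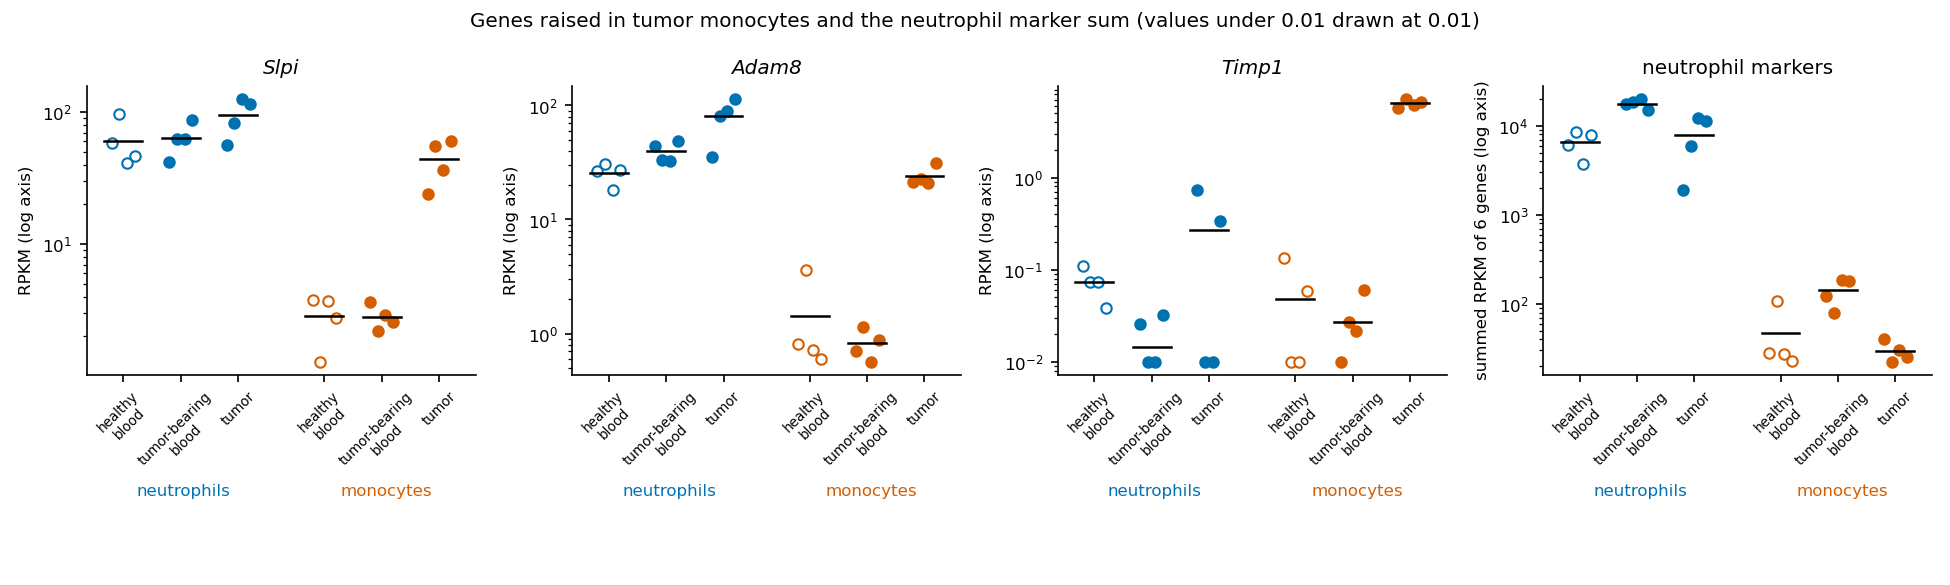
RPKM on log axes for genes raised in tumor monocytes, next to the summed RPKM of 6 neutrophil markers, with 1 point per library in the 6 myeloid groups; values under 0.01 are drawn at 0.01. Slpi lies at 24.02 to 60.9 RPKM in tumor monocytes and at 2.18 to 3.62 RPKM in blood monocytes of tumor-bearing mice, and the marker sum is 22.4 to 39.99 RPKM in the former and 78.8 to 187 RPKM in the latter.

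The plot of the myeloid groups sets these genes beside the marker sum. The 5 monocyte markers were lower in the tumor, at a sum of 64.7 to 91.8 RPKM in tumor monocytes and 188 to 229 RPKM in blood monocytes. The 7 macrophage markers summed to 120 to 339 RPKM and 25.0 to 590 RPKM, ranges that overlapped. Whether a mixture of maturing cells has a part in the differences was not tested.

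Among the other ADAMs, Adam17, the TNF-releasing sheddase, read 11.6, 9.27, 13.1 and 12.5 RPKM in tumor monocytes and 8.70, 4.64, 5.77 and 6.79 RPKM in blood monocytes of tumor-bearing mice. No tumor library was as low as any blood library, and the log2 fold change was 1.12 ± 0.23 (edgeR adjusted p = 0.00842). Adam9, a widely expressed sheddase, read 7.91, 8.55, 3.99 and 8.63 RPKM against 4.00, 3.07, 3.74 and 3.98 RPKM. Tumor replicate 3 lay within the blood range and the other 3 above it, and the log2 fold change was 1.21 ± 0.25 (edgeR adjusted p = 0.00833). Adam10, the Notch sheddase, had a log2 fold change of 0.84 ± 0.33 with overlapping groups (edgeR adjusted p = 0.108). Adam19 pointed the other way at -0.75 ± 0.27 (edgeR adjusted p = 0.0805), with tumor values of 0.964, 1.40, 0.989 and 1.86 RPKM below all blood values of 3.04, 2.12, 2.24 and 2.97 RPKM.

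Timp3 rose from a very low base, at 0.0402, 0.218, 0.457 and 0.0986 RPKM in tumor monocytes and 0.0302, 0.0119, 0.0086 and 0.01005 RPKM in blood monocytes. The log2 fold change was 3.98 ± 0.90 (edgeR adjusted p = 0.0126), with at most 14 counts in a blood library. Timp3 thus passed the filter on low counts mainly through the tumor libraries. The 10 epithelial markers reached a median of 0.964%, 20.8%, 2.64% and 3.46% of the tumor epithelial mean in tumor monocyte replicates 1 to 4, against at most 0.177% in blood monocytes of these mice. Timp3 itself was at 3.69 ± 1.48 RPKM in tumor epithelial cells, and the part of such cells in the monocyte value was not tested. Timp2, which blocks metalloproteinases and also takes part in activating MMP2, read 0.920, 0.481, 0.189 and 1.73 RPKM in tumor monocytes and 3.72, 5.23, 1.93 and 1.46 RPKM in blood monocytes. The ranges overlapped, and the log2 fold change of -1.67 ± 0.62 did not pass (edgeR adjusted p = 0.0935).

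These levels left each family with a different make-up. Timp1 made 86.4 ± 5.89% of the summed RPKM of the 3 TIMPs in tumor monocytes and 1.38 ± 1.75% in blood monocytes of tumor-bearing mice, where Timp2 made 98.1 ± 1.81%. Adam8 made 43.8 ± 4.39% of the summed RPKM of the 5 ADAMs in tumor monocytes and 4.20 ± 1.97% in blood monocytes, with sums of 54.7 ± 7.16 and 20.7 ± 4.67 RPKM. These shares restate the values above and were not tested.

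**Figure D3:**
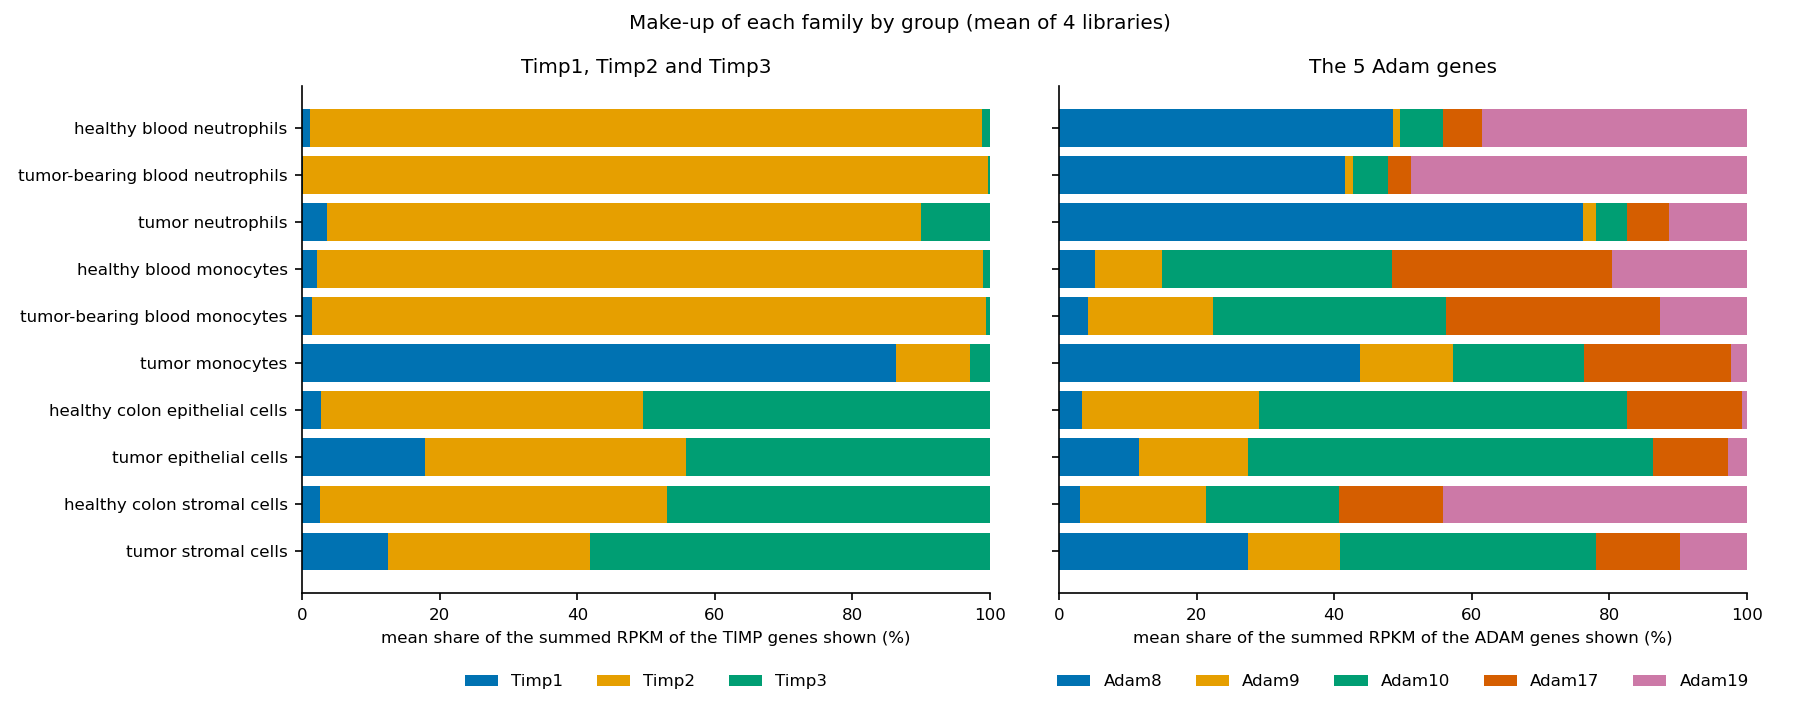
Mean share in percent of the summed RPKM of the 3 Timp genes and of the 5 Adam genes in each of the 10 groups, 1 stacked bar per group. The Timp bar is 86.4% Timp1 in tumor monocytes and 98.1% Timp2 in blood monocytes of tumor-bearing mice, and Adam8 makes 76.2% of the Adam bar in tumor neutrophils.

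The stacked bars of the family shares give these values for every group. Of the wider network, listed by name, shed substrates had 12 of 19 tested genes higher and 2 lower in tumor monocytes, with a median log2 difference of 2.08. Areg, an EGF receptor ligand released by ADAM17, had a log2 fold change of 7.38 ± 0.73 (edgeR adjusted p = 9.52e-05), at 5.79 ± 4.53 RPKM in tumor and 0.0355 ± 0.0224 RPKM in blood monocytes. Cxcl16, a membrane chemokine released by ADAM10, was higher by 5.69 ± 0.56 on the log2 scale (edgeR adjusted p = 9.39e-05). Il6ra, which encodes the interleukin-6 receptor, was lower, with a log2 fold change of -1.25 ± 0.21 (edgeR adjusted p = 0.00284). Of the proteinases that TIMPs and RECK inhibit, 3 of 9 tested were higher and 0 lower. Mmp14, a membrane metalloproteinase, was at 7.97 ± 3.10 RPKM in tumor and 0.0561 ± 0.0261 RPKM in blood monocytes (log2 fold change 7.38 ± 0.49, edgeR adjusted p = 9.69e-06), and Mmp19 rose by 3.73 ± 0.44 (edgeR adjusted p = 0.000329). Of other protease inhibitors 3 of 12 tested were higher, among them Serpinb2, a urokinase inhibitor, and Cstb, an inhibitor of cysteine cathepsins, at log2 fold changes of 7.84 ± 0.64 and 2.83 ± 0.45 (edgeR adjusted p = 2.99e-05 and 0.00183). Rhbdf2, which carries ADAM17 to the cell surface, was the 1 of 8 tested partners of ADAM10 and ADAM17 that was higher (1.18 ± 0.35, edgeR adjusted p = 0.0405), and 1 was lower. Of other ADAMs 2 of 5 tested were higher, and of neutrophil serine proteases 1 of 2 tested was lower.

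The promoters of 4 members are shown because Slpi and Adam8 followed each other over the libraries, while Timp1 and Reck did not. Each window holds the 250 bases before the transcript start in RefSeq on build GRCm38.p6, 5′ to 3′ on the gene's strand. Capitals mark every match, on either strand, to 6 motifs: TTNNGNAA for C/EBP factors of myeloid cells, TGANTCA for AP-1, GAGGAAG for PU.1, GGGCGG for the GC box, TATAAA for the TATA box, and the NF-kB motif by name. Slpi lies at chr2:164356508-164356757 on the minus strand, Adam8 at chr7:139992563-139992812 on the minus strand, Timp1 at chrX:20869916-20870165 on the plus strand and Reck at chr4:43875280-43875529 on the plus strand.
Slpi: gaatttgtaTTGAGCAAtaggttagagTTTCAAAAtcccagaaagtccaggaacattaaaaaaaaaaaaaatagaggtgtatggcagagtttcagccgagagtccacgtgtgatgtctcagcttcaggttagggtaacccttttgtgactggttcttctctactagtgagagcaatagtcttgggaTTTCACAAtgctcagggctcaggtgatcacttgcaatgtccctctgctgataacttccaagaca
Adam8: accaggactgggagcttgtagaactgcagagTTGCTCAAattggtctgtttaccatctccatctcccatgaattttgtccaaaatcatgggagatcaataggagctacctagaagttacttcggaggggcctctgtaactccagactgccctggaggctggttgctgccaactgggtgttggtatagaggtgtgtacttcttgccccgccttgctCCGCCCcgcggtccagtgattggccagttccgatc
Timp1: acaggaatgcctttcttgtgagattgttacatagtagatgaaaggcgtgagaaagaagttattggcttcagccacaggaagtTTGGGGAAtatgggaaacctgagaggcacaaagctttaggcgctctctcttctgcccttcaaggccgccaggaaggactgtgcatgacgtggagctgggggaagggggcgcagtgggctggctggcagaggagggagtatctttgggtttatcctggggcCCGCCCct
Reck: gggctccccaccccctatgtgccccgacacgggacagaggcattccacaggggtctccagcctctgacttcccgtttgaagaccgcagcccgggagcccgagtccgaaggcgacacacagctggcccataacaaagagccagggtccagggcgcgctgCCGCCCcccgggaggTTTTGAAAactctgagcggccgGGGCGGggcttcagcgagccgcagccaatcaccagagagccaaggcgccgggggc

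The Slpi window held 3 C/EBP matches, at 241 to 234, 223 to 216 and 64 to 57 bases before the start, and none of the other motifs. The Adam8 window held 1 C/EBP match at 219 to 212 bases before the start and 1 GC box at 35 to 30 bases. The first Slpi match, TTGAGCAA, and the Adam8 match, TTGCTCAA, are the same letters read on opposite strands. Timp1 had 1 C/EBP match and 1 GC box, and Reck 1 C/EBP match and 2 GC boxes. Of 32851 promoter windows of this length, 36.8% held the C/EBP letters, 32.7% the GC box, 12.4% the TATA box, 10.6% the PU.1 motif, 7.25% the NF-kB motif and 6.75% the AP-1 motif. The windows differed more in base composition, with 42% GC and 2 CpG in Slpi, 52.8% and 6 in Adam8, 54.4% and 6 in Timp1 and 68.4% and 19 in Reck, against medians of 52.4% and 6 over all windows. A match describes letters only, and these data hold no measure of binding.

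Tumor neutrophils were set against blood neutrophils of tumor-bearing mice in the same way. Of the 9 members tested, 3 passed, Timp3 higher and Reck and Adam19 lower, where 17.9% of 13674 genes passed in either direction. Timp3 and Reck were not tested when at least 10 counts were required in every library. The median log2 difference was 0.59 over the members and 0.11 over all genes. Because replicate 1 of the tumor neutrophils stood apart, each member's fold change is also given without it, and 5 of 9 members then passed, where 16.7% of genes did.

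Slpi was high in both places, at 56.4, 83.3, 126 and 115 RPKM in tumor neutrophils and 41.8, 62.8, 62.5 and 87.9 RPKM in blood neutrophils. The ranges overlapped, with a log2 fold change of 0.66 ± 0.40 (edgeR adjusted p = 0.291), and 0.91 without replicate 1 (edgeR adjusted p = 0.0526). Adam8 read 35.5, 81.6, 90.3 and 114 RPKM against 43.8, 33.5, 32.4 and 49.3 RPKM. Replicate 1 lay within the blood range and the other 3 above it, and the log2 fold change was 1.14 ± 0.46 with all 4 (edgeR adjusted p = 0.111) and 1.44 without replicate 1 (edgeR adjusted p = 0.00356). Adam17 read 6.13, 4.46, 6.27 and 5.44 RPKM against 3.25, 2.96, 3.34 and 3.31 RPKM. All tumor libraries were above all blood libraries, with a log2 fold change of 0.84 ± 0.28 (edgeR adjusted p = 0.0620) and 0.92 without replicate 1 (edgeR adjusted p = 0.0224).

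Reck fell, from 1.60, 1.04, 0.646 and 1.04 RPKM in blood to 0.0356, 0.0617, 0.103 and 0.113 RPKM in tumor neutrophils. The log2 fold change was -3.69 ± 0.62 (edgeR adjusted p = 0.00265) and -3.39 without replicate 1 (edgeR adjusted p = 0.00379). Adam19, a membrane sheddase that reads highest in blood neutrophils, was at 49.6, 47.1, 39.5 and 48.7 RPKM in blood and 3.57, 14.0, 14.0 and 17.5 RPKM in tumor. The groups were apart, with a log2 fold change of -1.75 ± 0.52 (edgeR adjusted p = 0.0408) and -1.41 without replicate 1 (edgeR adjusted p = 0.00305). Leaving out any 1 of 6 other libraries ended this call, with an adjusted p of up to 0.0932, and leaving out tumor replicate 2 did not. Timp2, Adam9 and Adam10 did not pass, at log2 fold changes of -0.67 ± 0.43, 0.59 ± 0.46 and -0.66 ± 0.61 (edgeR adjusted p = 0.313, 0.418 and 0.495). Without replicate 1 these were -0.36, 0.54 and -1.12 (edgeR adjusted p = 0.310, 0.485 and 0.270). The 5 markers of immature neutrophils were lower along with Reck and Adam19, at a sum of 170 to 524 RPKM in blood and 8.38 to 70.2 RPKM in tumor neutrophils, and their part was not tested.

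Timp3 was higher in tumor neutrophils, at 1.84, 0.162, 0.865 and 0.189 RPKM against 0.0194, 0.0734, 0.0154 and 0.0424 RPKM in blood. The log2 fold change was 4.19 ± 0.88 (edgeR adjusted p = 0.00864) and 3.503 without replicate 1 (edgeR adjusted p = 0.0235). The 4 tumor libraries had epithelial markers at a median of 92.7%, 12.7%, 17.7% and 4.61% of the tumor epithelial mean, against at most 0.0947% in blood neutrophils, and all 10 markers were above 0 in each tumor library. The Timp3 values of replicates 1 and 3, the highest, were in the libraries with the most epithelial signal. The 8 fibroblast markers summed to 1.83 to 5.40 RPKM in tumor and 0.305 to 0.926 RPKM in blood neutrophils, and Timp3 was at 14.1 RPKM on average in tumor stroma and 3.69 RPKM in tumor epithelial cells. The part of either cell type was not tested. Timp1 was not tested, with 36, 0, 0 and 19 counts in the tumor libraries.

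The Adam8 and Adam19 levels also changed the make-up of the ADAM family in neutrophils. Adam19 made 48.8 ± 2.30% of the summed RPKM of the 5 ADAMs in blood neutrophils of tumor-bearing mice and Adam8 made 41.6 ± 4.18%, whereas in tumor neutrophils Adam8 made 76.2 ± 7.15% and Adam19 11.2 ± 3.19%. Mmp9, the metalloproteinase the study followed, was at 127, 116, 89.2 and 113 RPKM in blood and at 6.81, 45.5, 52.8 and 61.6 RPKM in tumor neutrophils. In the same libraries its secreted inhibitor Timp1 was at most 0.724 RPKM, and Timp2 was at 3.60 to 13.6 RPKM in the tumor and 12.2 to 15.9 RPKM in blood. RNA of Elane, which encodes the elastase that SLPI inhibits, had at most 2 counts in any of the 12 neutrophil libraries. Blood monocytes of tumor-bearing mice had 39 to 128 counts of it. These are RNA counts, and the amount of elastase protein in the cells was not measured. Of the 11 other protease inhibitors tested 6 were higher and 0 lower in tumor neutrophils, including Serpinb2 and Cstb at log2 fold changes of 7.22 ± 0.88 and 2.42 ± 0.33 (edgeR adjusted p = 0.000772 and 0.000981). Shed substrates had 8 of 18 higher and 1 lower, the inhibited proteinases 4 of 11 higher and 1 lower, other ADAMs 1 of 5 higher and the partners 1 of 7 higher. Areg was among the substrates at 8.17 ± 1.17 (edgeR adjusted p = 0.00139), as was the epithelial cadherin Cdh1 at 7.77 ± 0.89 (edgeR adjusted p = 0.000633), which is a marker of the epithelial signal described above. Notch1, a receptor cut by ADAM10, was lower by -2.09 ± 0.60 (edgeR adjusted p = 0.0352). Without replicate 1 the log2 fold changes were 7.56 for Serpinb2, 2.51 for Cstb, 7.37 for Areg, 7.02 for Cdh1 and -1.93 for Notch1, and that of Notch1 no longer passed (edgeR adjusted p = 0.0854).

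The change from blood to tumor was then compared between the 2 myeloid cell types as an interaction. Slpi and Adam8 passed, 2 of 10 members, where 3.99% of 17465 genes did. The change of Slpi was smaller in neutrophils than in monocytes by -3.66 ± 0.51 on the log2 scale (edgeR adjusted p = 0.00147), and that of Adam8 by -4.09 ± 0.54 (edgeR adjusted p = 0.000876). Both calls held in every alternative fit run for this interaction and with any 1 of the 16 libraries left out. The mouse as a block was not among those fits, although several of these libraries share a mouse by their titles. The other 8 members gave adjusted p-values from 0.186 to 0.993, and the largest difference among them was -4.44 ± 1.89 for Timp1.

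**Figure D4:**
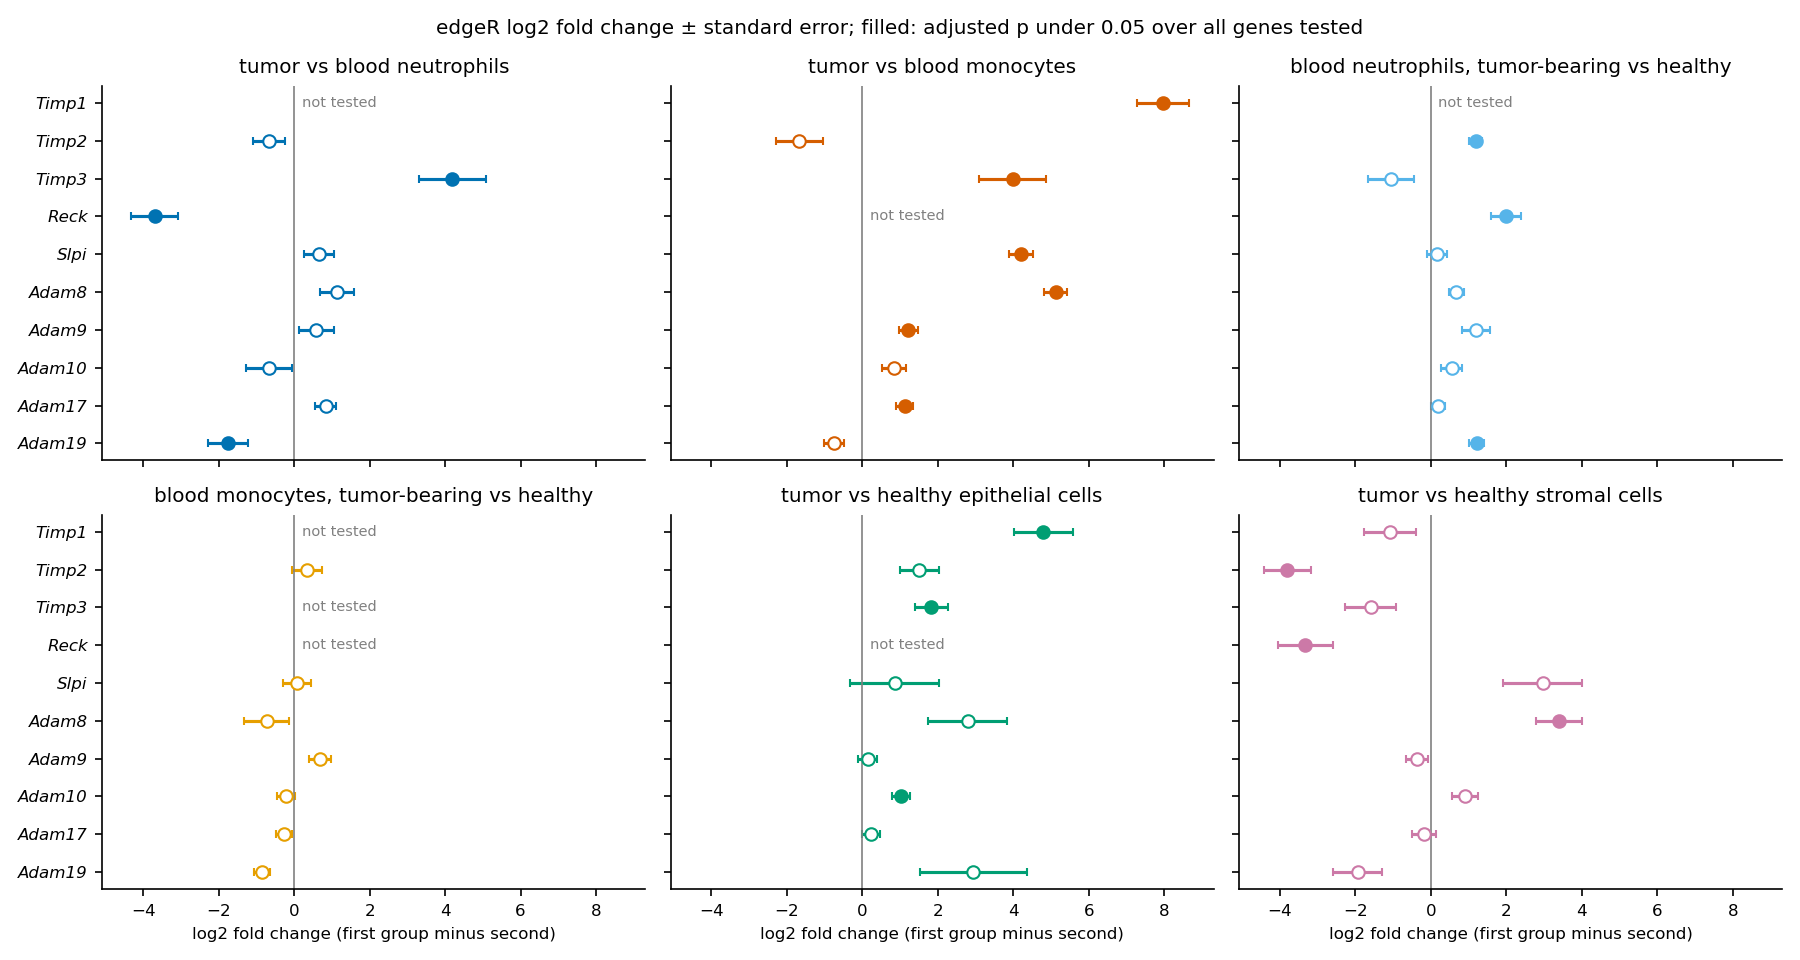
edgeR log2 fold change with its standard error for each of the 10 genes in the 6 comparisons of a pair of groups, filled where the adjusted p over all genes tested is under 0.05. In tumor against blood monocytes 6 genes are filled and lie to the right of 0, in blood monocytes none is filled, and in stroma Timp2 and Reck lie to the left at -3.80 and -3.32.

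The plot of fold changes also shows how blood cells of tumor-bearing mice compared with those of healthy mice. In blood neutrophils 3 of 9 members were higher and 0 lower, where 3.59% of 13360 genes were higher and 6.52% passed in either direction. Timp2 read 14.7, 15.6, 12.2 and 15.9 RPKM in tumor-bearing and 6.78, 7.58, 4.81 and 7.21 RPKM in healthy mice, with no overlap and a log2 fold change of 1.19 ± 0.16 (edgeR adjusted p = 0.00380). Adam19 was at 49.6, 47.1, 39.5 and 48.7 RPKM against 23.2, 16.9, 16.6 and 23.8 RPKM, also apart, with 1.22 ± 0.19 (edgeR adjusted p = 0.00673). Reck was at 1.60, 1.04, 0.646 and 1.04 RPKM against 0.364, 0.477, 0.130 and 0.167 RPKM, apart by a narrower gap, with 2.00 ± 0.40 (edgeR adjusted p = 0.0175). All 3 calls were lost in edgeR when the spread was estimated over all 40 libraries, at edgeR adjusted p of 0.357, 0.572 and 0.319. That of Reck was also lost without tumor-bearing replicate 1 (edgeR adjusted p = 0.0569) or healthy replicate 3 (edgeR adjusted p = 0.0521). With an absolute log2 fold change above 1.5 required as well, 1 of the 9 members passed, Reck, where 4.01% of genes did.

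Adam8 lay higher in every tumor-bearing than in every healthy library of blood neutrophils, with a log2 fold change of 0.68 ± 0.19 that did not pass (edgeR adjusted p = 0.0605), and Slpi differed by 0.16 ± 0.27 (edgeR adjusted p = 0.778). The 5 markers of immature neutrophils summed to 170 to 524 RPKM in tumor-bearing and 4.15 to 15.6 RPKM in healthy mice, with all 5 above 0 in each library, and their part in the 3 calls was not tested. Of the inhibited proteinases 3 of 8 tested were higher, among them Mmp8, the neutrophil collagenase, at 2.78 ± 0.40 (edgeR adjusted p = 0.00424), and Mmp25, a neutrophil membrane metalloproteinase, at 2.01 ± 0.21 (edgeR adjusted p = 0.00174). App, a precursor that ADAM10 cuts, was the 1 of 15 shed substrates that was higher, at 1.52 ± 0.20 (edgeR adjusted p = 0.00362), and 1 was lower. Other protease inhibitors had 1 of 9 higher, other ADAMs 2 of 6 and the partners 0 of 7.

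In blood monocytes 0 of 7 members tested passed in edgeR, where 0.216% of 15313 genes did, 2 had an unadjusted p under 0.05 and DESeq2 called 1. Adam19 was the nearest, at 3.04, 2.12, 2.24 and 2.97 RPKM in tumor-bearing and 5.06, 5.53, 3.99 and 5.29 RPKM in healthy mice. The groups were apart, with a log2 fold change of -0.85 ± 0.21 (edgeR adjusted p = 0.153, DESeq2 adjusted p = 0.0206). Slpi and Adam8, which rose in tumor monocytes, differed between the blood monocytes by 0.07 ± 0.37 and -0.72 ± 0.59 (edgeR adjusted p = 0.973 and 0.745). Healthy replicate 2 set the direction of the Adam8 value, which was 0.35 without it (edgeR adjusted p = 0.809). Timp2, Adam9, Adam10 and Adam17 had log2 fold changes of 0.34 ± 0.39, 0.69 ± 0.30, -0.21 ± 0.25 and -0.28 ± 0.21 (edgeR adjusted p = 0.830, 0.498, 0.834 and 0.725), and Timp1, Timp3 and Reck had too few counts to be tested.

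Tumor and healthy epithelial cells differed in 3 of 9 members tested, all higher in the tumor, where 10.6% of 16085 genes were higher and 22.6% passed in either direction. Timp1 read 0.932, 1.07, 2.61 and 1.38 RPKM in tumor and 0.0401, 0.0424, 0.000306 and 0.0210 RPKM in healthy epithelial cells, where it had 2, 3, 0 and 2 counts. The groups were far apart, with 433 against 7 counts, a depth-scaled ratio of 60.2 with an exact 95% counting interval of 29.0 to 151 and an edgeR adjusted p of 0.00148. Here too Timp1 passed the filter on low counts through the tumor libraries alone. Timp3 read 3.74, 1.81, 5.43 and 3.77 RPKM against 0.933, 0.465, 0.509 and 0.316 RPKM, a log2 fold change of 1.83 ± 0.43 without overlap (edgeR adjusted p = 0.0115). Adam10 read 5.92, 5.15, 15.996 and 11.02 RPKM against 3.51, 4.46, 4.07 and 0.693 RPKM, a log2 fold change of 1.02 ± 0.24 without overlap (edgeR adjusted p = 0.0120). Adam10 made 58.9 ± 8.62% of the ADAM sum in tumor epithelial cells. The spread over all 40 libraries ended the calls of Timp3 and Adam10, at adjusted p of 0.0819 and 0.13. Markers of other cells moved with these genes. The 5 endothelial markers, all above 0 in each library, summed to 4.23 to 4.63 RPKM in tumor and 0.0416 to 0.369 RPKM in healthy epithelial cells. The 5 erythroid markers, also all above 0, summed to 25.4 to 73.1 and 0.491 to 18.6 RPKM. The part of these cells was not tested.

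Timp2, Adam8 and Adam19 were also higher in every tumor than in every healthy epithelial library without passing, at log2 fold changes of 1.504 ± 0.52, 2.79 ± 1.05 and 2.94 ± 1.41 (edgeR adjusted p = 0.0623, 0.0837 and 0.170). Without healthy replicate 4, the library rich in mitochondrial counts, 5 of the 9 members tested with all libraries passed, where 23.3% of genes did. They were Timp1, Timp3 and Adam10 with Adam8 and Adam19, at log2 fold changes of 3.81 for Adam8 and 5.07 for Adam19 (edgeR adjusted p = 0.0374 and 0.0393). Reck was removed by the filter on low counts with all libraries but not in that fit, and its healthy libraries held at most 4 counts. Slpi, Adam9 and Adam17 had log2 fold changes of 0.86 ± 1.19, 0.14 ± 0.25 and 0.22 ± 0.24 (edgeR adjusted p = 0.664, 0.738 and 0.558). Of the inhibited proteinases 3 of 8 were higher, led by Mmp7, matrilysin, at 30.7 ± 13.9 RPKM in tumor and 0.533 ± 0.945 RPKM in healthy cells (log2 fold change 5.26 ± 1.09, edgeR adjusted p = 0.00598). Other protease inhibitors had 2 of 18 higher and 4 lower, among them Spink4, a goblet cell product, at -2.98 ± 0.66 (edgeR adjusted p = 0.00843), and Spint2, an inhibitor of membrane serine proteases, at -0.77 ± 0.22 (edgeR adjusted p = 0.0320). The partners had 4 of 9 higher and 1 lower, shed substrates 4 of 21 higher and 1 lower, and other ADAMs 1 of 4 in each direction.

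In stroma 3 of 10 members passed, Timp2 and Reck lower and Adam8 higher in the tumor, where 9.55% of 19081 genes passed in either direction. Timp2 read 3.36, 3.80, 5.18 and 4.74 RPKM in tumor and 39.6, 48.9, 30.9 and 178 RPKM in healthy stroma, a log2 fold change of -3.80 ± 0.63 without overlap (edgeR adjusted p = 0.00950). Reck read 0.105, 0.664, 0.953 and 1.12 RPKM against 6.87, 6.01, 4.72 and 18.2 RPKM, a log2 fold change of -3.32 ± 0.73 without overlap (edgeR adjusted p = 0.0263). The healthy library with most Timp2 and Reck, replicate 4, also had the highest fibroblast marker sum, 2027 RPKM against 369 to 657 in the other 3. The fibroblast marker sums were lower along with both genes, as given above, and their part was not tested. Without tumor stromal replicates 1 and 2, which stood apart, 4 members passed, where 6.14% of genes did, and the log2 fold change was -3.64 for Timp2 (edgeR adjusted p = 0.0517) and -2.83 for Reck (edgeR adjusted p = 0.0438). The call of Reck ended with any of 3 of the 8 libraries left out, tumor replicates 2 and 3 or healthy replicate 2, with an edgeR adjusted p of up to 0.0631.

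Timp3 was lower in every tumor than in every healthy stromal library, yet split within the tumor. It read 4.53, 2.15, 30.9 and 18.7 RPKM in tumor replicates 1 to 4 and 50.4, 49.3, 53.3 and 52.3 RPKM in healthy stroma, and its log2 fold change of -1.59 ± 0.68 did not pass (edgeR adjusted p = 0.186). The tumor replicates with more Timp3 were those with endothelial markers at 108 and 117 RPKM, and these markers summed to 13.3 to 117 RPKM in healthy stroma. The part of endothelial cells was not tested. Mitochondrial genes took 55.4% and 62.9% of counts in tumor replicates 1 and 2 and 27.4% and 24.8% in replicates 3 and 4. In healthy stroma they took 15.6% to 24.9%. With mitochondrial genes removed, the log2 fold change of Timp3 was -1.59 (edgeR adjusted p = 0.192). Adam19 was also lower in every tumor library, at 0.389, 0.923, 4.64 and 3.92 RPKM against 10.9, 12.4, 13.3 and 9.90 RPKM, with a log2 fold change of -1.94 ± 0.65 (edgeR adjusted p = 0.101) and of -1.17 without tumor replicates 1 and 2 (edgeR adjusted p = 0.0403). Timp1 overlapped, at 1.90, 1.58, 1.39 and 1.46 RPKM against 1.66, 2.11, 1.61 and 11.6 RPKM. Adam9, Adam10 and Adam17 did not pass, at log2 fold changes of -0.36 ± 0.29, 0.90 ± 0.35 and -0.18 ± 0.32 (edgeR adjusted p = 0.486, 0.149 and 0.772).

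**Figure D5:**
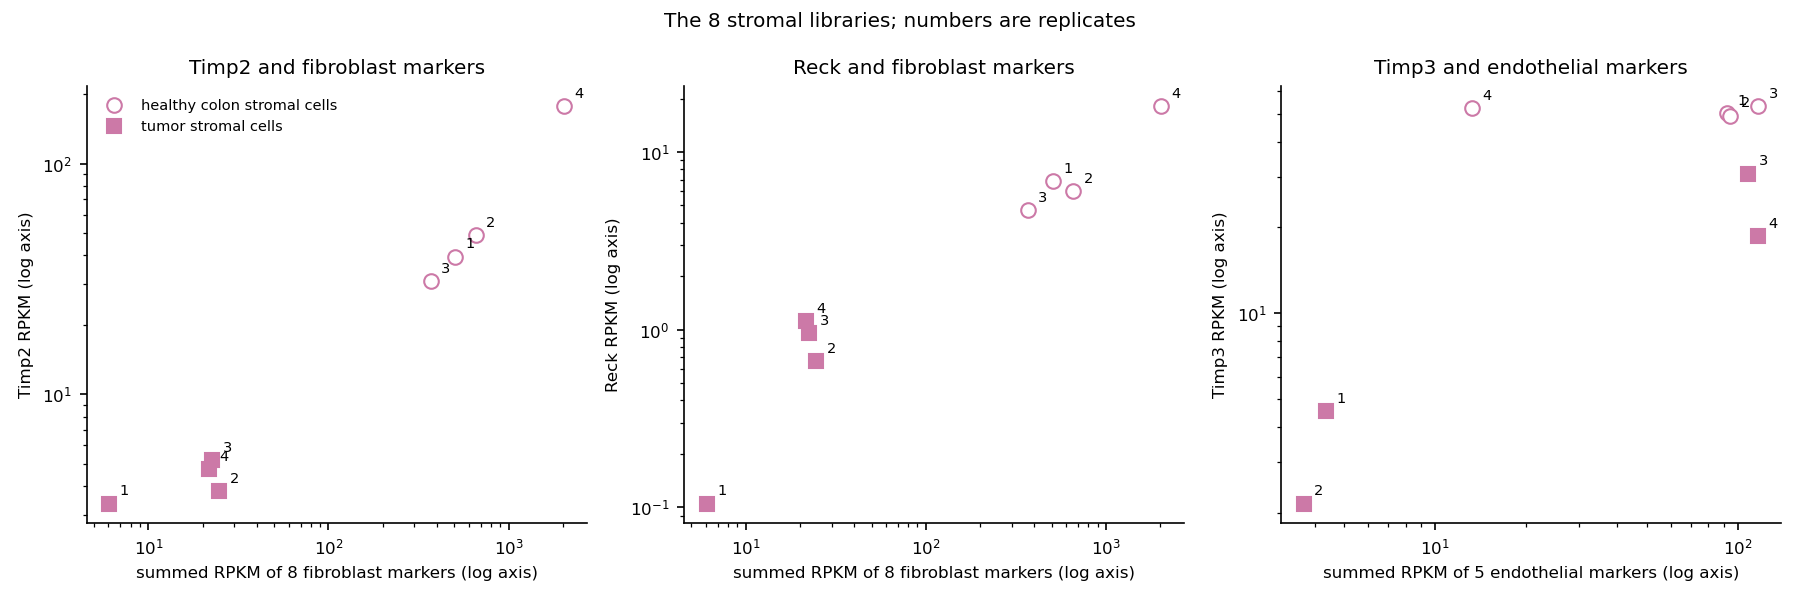
Summed RPKM of fibroblast or endothelial markers on the horizontal log axis and RPKM of a member on the vertical log axis in the 8 stromal libraries, numbered by replicate. The 4 tumor libraries lie at 6.07 to 24.7 RPKM of fibroblast markers and 3.36 to 5.18 RPKM of Timp2, below and to the left of the 4 healthy ones.

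The plot of the stromal libraries gives each library's marker sums and member levels side by side. Adam8 rose in tumor stroma, at 3.14, 1.96, 13.1 and 9.45 RPKM against 0.496, 0.556, 0.865 and 1.30 RPKM, a log2 fold change of 3.39 ± 0.62 without overlap (edgeR adjusted p = 0.0135). Slpi read 2.35, 0.137, 7.68 and 8.18 RPKM against 0.486, 0.192, 0.527 and 1.64 RPKM, with 2.96 ± 1.05 and overlapping groups (edgeR adjusted p = 0.117). Without tumor replicates 1 and 2 the log2 fold changes were 4.09 for Adam8 (edgeR adjusted p = 0.00394) and 3.77 for Slpi (edgeR adjusted p = 0.0259). The 6 neutrophil markers, all above 0 in each library, summed to 40.9, 8.46, 1508 and 511 RPKM in the tumor stromal replicates and to 6.23 to 43.2 RPKM in healthy stroma. The part of neutrophils in the Adam8 and Slpi values was not tested. Shed substrates had 5 of 22 higher and 1 lower, including Tnf, the main ADAM17 substrate, at 4.06 ± 0.68 (edgeR adjusted p = 0.00974), and Cdh1 at 5.76 ± 1.52 (edgeR adjusted p = 0.0474). The inhibited proteinases had 1 of 16 higher, Mmp7 at 7.47 ± 1.33 (edgeR adjusted p = 0.0126), and 3 lower, with Mmp2, a fibroblast gelatinase, at -4.12 ± 0.52 (edgeR adjusted p = 0.00483). Other protease inhibitors had 3 of 22 higher, with Spint1 and Wfdc17 at 5.33 ± 1.42 and 4.63 ± 1.13 (edgeR adjusted p = 0.0483 and 0.0369), and 4 lower, with Serpinf1, a serpin of the extracellular space, and Serping1, the C1 inhibitor, at -4.77 ± 0.86 and -4.48 ± 0.66 (edgeR adjusted p = 0.0134 and 0.00685). Other ADAMs had 1 of 8 higher and 4 lower, with Adamdec1, an ADAM-like protease of the gut, at -4.41 ± 0.97 (edgeR adjusted p = 0.0256), and the partners had 0 of 9. The tumor stromal libraries had epithelial markers at a median of 12.7% to 89.4% of the tumor epithelial mean, and in tumor epithelial cells Mmp7 was at 30.7 RPKM.

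Whether epithelial and stromal cells changed differently from healthy colon to tumor was tested as an interaction, which 5 of 10 members passed, where 15.1% of 20901 genes did. The 5 were Timp1, Timp2, Timp3, Reck and Adam19, each with a change that was more positive in epithelial cells. By their titles, replicate 4 of healthy epithelial cells and replicate 4 of healthy stroma came from the same mouse. The differences of log2 changes were 5.30 ± 0.87 for Timp2 (edgeR adjusted p = 0.000983) and 3.42 ± 0.85 for Timp3 (edgeR adjusted p = 0.0135). Those of Timp1, Reck and Adam19 rest on healthy epithelial libraries with 0 to 3, 0 to 4 and 0 to 21 counts, so the values of 5.91 ± 1.08, 7.50 ± 1.30 and 5.01 ± 1.61 depend on the prior count of the fit (edgeR adjusted p = 0.00189, 0.00138 and 0.0473). The call of Adam19 held in 3 of 16 fits that left out 1 library, with an adjusted p of up to 0.151 without tumor epithelial replicate 2, while the other 4 held in all 16.

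Within the tumor, the 4 cell types were compared over their 16 libraries. Neutrophils and monocytes differed in 6 of 10 members (15.5% of 19026 genes passed). Timp2, Reck, Adam8 and Adam19 were higher in neutrophils, at log2 fold changes of 4.15 ± 0.62 for Timp2, 2.49 ± 0.54 for Adam8 and 4.03 ± 0.95 for Adam19 and a depth-scaled count ratio of 16.01 for Reck (exact 95% counting interval 7.08 to 44.8). Timp1 and Adam9 were higher in monocytes, with -4.26 ± 0.96 and -1.60 ± 0.36. The edgeR adjusted p lay between 0.000731 and 0.0114 for these 6 calls. Several of the 16 libraries share a mouse by their titles, and with the mouse as a block Timp2 and Adam19 passed (edgeR adjusted p = 0.0134 and 0.0448), while Timp1, Reck, Adam8 and Adam9 did not, at edgeR adjusted p from 0.0560 to 0.0667. For this block, here and in the comparisons below, the share of all genes that passed is not given. Slpi did not pass, at 1.84 ± 0.80 (edgeR adjusted p = 0.123), nor did Timp3, Adam10 and Adam17, at 2.27 ± 0.83, -1.25 ± 0.56 and -0.43 ± 0.31 (edgeR adjusted p = 0.0731, 0.138 and 0.359). Of the inhibited proteinases 4 of 15 were higher in neutrophils and 2 in monocytes, with Mmp9 and Mmp25 at 10.53 ± 1.45 and 5.41 ± 1.16 and Mmp19 and Mmp14 at -4.74 ± 0.94 and -2.91 ± 0.42 (edgeR adjusted p from 0.000498 to 0.00669).

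Against tumor epithelial cells, neutrophils differed in 5 members (24.7% of genes) and monocytes in 8 (32.0% of genes). Slpi was higher by 7.77 ± 1.04 in neutrophils and 5.93 ± 0.96 in monocytes, and Adam8 by 6.505 ± 0.65 and 4.02 ± 0.57. Adam17 was higher by 2.63 ± 0.33 in neutrophils and 3.06 ± 0.34 in monocytes (edgeR adjusted p = 2.49e-05 and 1.82e-05). The 3 genes passed in both comparisons and with any 1 library left out. Timp2 and Adam19 were higher in neutrophils, by 2.49 ± 0.57 and 6.08 ± 1.05, and Timp1 and Adam9 in monocytes, by 2.36 ± 0.88 and 1.82 ± 0.36. The Timp1 call (edgeR adjusted p = 0.0491) held in 3 of 16 fits that left out 1 library, with an adjusted p of up to 0.115. Timp2 and Timp3 were lower in monocytes than in epithelial cells, by -1.67 ± 0.56 and -3.91 ± 0.89, and Reck had 201 counts in epithelial cells against 6, a depth-scaled ratio of 22.1 (exact 95% counting interval 9.99 to 61.0). With the mouse as a block, the 5 neutrophil calls held and Timp3 passed too (edgeR adjusted p = 0.0246). In monocytes Timp1, Timp2 and Reck no longer passed under that block (edgeR adjusted p = 0.151, 0.103 and 0.0573), and Adam19 did, higher by 3.97 (edgeR adjusted p = 0.0303).

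Against tumor stroma, neutrophils differed in 6 members (18.5% of genes) and monocytes in 7 (22.7% of genes). Adam8, Slpi and Adam17 were again higher in neutrophils, by 4.57 ± 0.59, 5.39 ± 0.93 and 1.90 ± 0.32, and in monocytes, by 2.08 ± 0.53, 3.55 ± 0.85 and 2.33 ± 0.33. Timp3 was lower in both, by -3.52 ± 0.87 and -5.79 ± 0.97 (edgeR adjusted p = 0.00968 and 0.00113). With the mouse as a block, 0 members passed in neutrophils, and Timp3 and Adam17 passed in monocytes (edgeR adjusted p = 0.00607 and 0.0290). Without the share of all genes under that block, these losses cannot be told apart from fewer calls in general. Tumor epithelial and stromal cells differed in 1 member (4.12% of genes), Adam8, lower in epithelial cells by -1.94 ± 0.53 (edgeR adjusted p = 0.0489), a call that held in 4 of 16 fits that left out 1 library and not with the mouse as a block (edgeR adjusted p = 0.0707), where Slpi passed at -3.43 (edgeR adjusted p = 0.0302).

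Over all 40 libraries, the levels of the members on the log2(RPKM + 1) scale were compared with those of 4904 genes. These correlations describe libraries of 10 groups that share cell type and depth, and they carry no test. Slpi and Adam8 were the member pair most alike, with a Pearson r of 0.949, followed by Timp2 and Reck at 0.851 and Timp3 and Reck at 0.779. Slpi was most like C5ar1, the complement C5a receptor (0.975), Clec4d (0.970) and Il1b (0.969), and Adam8 most like Clec4d (0.964), the decoy receptor Il1r2 (0.962) and the lactate exporter Slc16a3 (0.960). Timp1 was most like Sh3pxd2b (0.922), Mmp14 (0.913) and Nr4a2 (0.888). Timp2 was most like Gsn, gelsolin (0.907), Crispld2 (0.879) and Reck, and Reck most like the collagen gene Col5a1 (0.968), Kcnn3 (0.964) and Ccdc80 (0.944). Timp3 was most like Spry4 (0.988), Adamts1 (0.985) and Amotl1 (0.981), and Adam19 most like Rnf144a (0.965), Arap3 (0.927) and Ggt5 (0.921). Of the remaining ADAMs, Adam17 was most like St3gal1 (0.936), Adam9 most like Lrpap1 (0.883) and Adam10 most like Wapl (0.838).

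Timp1 and Timp3 lie inside introns of Syn1 and Syn3 on the other strand, and Timp2, Reck, Slpi, Adam8, Adam17 and Adam19 overlap other annotated genes. Whether the authors' counting used strand is not given in the sources used here, so reads of overlapping genes may be shared. Syn1 and Syn3 reached at most 2.64 and 2.17 RPKM in any library. Others reached more: on the other strand Iah1 at Adam17 reached 7.68 RPKM and Gm16033 at Adam19 7.01 RPKM. On the same strand the microRNA genes Mir7678 in Slpi, Mir7062 in Adam8 and Mir8100 in Adam19 reached 22.9, 21.3 and 18.9 RPKM. The part of shared reads was not tested.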

How the data were processed

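RNA was sequenced from sorted neutrophils, monocytes, epithelial cells and stromal cells, after amplification of the RNA. Per the labels and the methods, the authors used Bowtie2 with the mouse build mm10 and counted reads per Ensembl gene. The deposited files hold these expected counts, without normalization, and RPKM values that the authors computed from the same counts. The annotation release and the treatment of strand and of reads with several matches are not given in the sources used here. Labels give an age of 8 to 10 weeks at induction. They give replicate number 3 to both of a pair of tumor stromal libraries, of which the second is called replicate 4. Groups were taken from the labels.

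Expected counts were rounded, since 99.6% of the nonzero values were not whole. Each pair of groups was compared in R 4.3.3 with edgeR 4.0.16 (glmQLFit with robust set, then glmQLFTest, its quasi-likelihood test), after TMM normalization and filterByExpr, on the libraries of the groups compared. Tumor cell types were compared in 1 fit over 16 libraries, and 2 interactions were fitted over 16 libraries each. Adjusted p-values are Benjamini-Hochberg over all genes tested, with a threshold of 0.05, and every adjusted p in the text is from edgeR unless another tool is named. The script was tested on simulated data. Depth was 10717873 to 38002939 counts per library, and exact 95% intervals of count ratios cover counting error only, as the libraries hold no molecular identifiers. Alternatives were limma 3.58.1 (voom on counts, and limma on log2(RPKM + 1) and log2(RPKM + 0.1) for genes above 0.5 RPKM), DESeq2 1.42.0, RLE scaling, genes unfiltered or kept at a minimum of 10 counts per library, mitochondrial genes removed, a replicate block, the mouse in the title as a block (titles share mice across tumor cell types), all 40 libraries in 1 fit, an added log2 fold threshold of 1.5, and leaving out libraries.

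The 10 members and the other lists were chosen with earlier results of these data known. The members were tested in every comparison where counts allowed. From each other list up to 2 genes in each direction are named, those with the largest change that passed at 5 RPKM or more in the higher group. A gene that this rule names is not reported here, and for tumor cell types only proteinases in neutrophils against monocytes are given. The 3 genes most like each member were taken by Pearson r among genes at 5 RPKM or more in a group, and Mmp9, Elane and Apc were named beside them. Promoter windows came from RefSeq on GRCm38.p6, which has entries for 9 of the 10 members. Symbols came from GENCODE M21 for 45143 of 45706 genes. No 2 replicates were alike enough to be 1 library.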

Additional observations from a re-analysis of the deposited data

Results flagged for a closer look

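In 9 of the 96 combinations of a member and a group with more than 3 counts, 1 library lay apart from the other 3 by a gap above the 95% critical value of Dixon's test. Chance alone flags about 1 in 20 such groups of 4. Healthy stromal replicate 4 was the high library for Timp1, at 11.6 RPKM, for Timp2, at 178 RPKM, and for Reck, at 18.2 RPKM. It also had the highest fibroblast marker sum and the lowest endothelial marker sum of the 4 healthy stromal libraries.

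The remaining 6 were single values. Timp3 was high in blood monocyte replicate 1 of tumor-bearing mice at 0.0302 RPKM and in healthy blood monocyte replicate 2 at 0.0717 RPKM. Adam8 was high in tumor monocyte replicate 4 at 31.5 RPKM and in healthy blood monocyte replicate 2 at 3.63 RPKM, the healthy monocyte library with the highest neutrophil marker sum, 108 RPKM. Adam9 was low in tumor monocyte replicate 3 at 3.99 RPKM. Adam19 was high in tumor epithelial replicate 2 at 0.926 RPKM.

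Between neutrophils and monocytes the change in tumor relative to blood differed for Slpi, by -3.66 on the log2 scale, and for Adam8, by -4.09. The change from healthy colon to tumor differed between epithelial and stromal cells for Timp1 by 5.91, Timp2 by 5.30, Timp3 by 3.42, Reck by 7.50 and Adam19 by 5.01. Each difference was tested as an interaction in edgeR, with the adjusted p given above.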

How the results depend on the processing

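No alternative turned the direction of a called result. Counts of members that passed moved by more than 1.5 times as follows, with edgeR's count first. Where no share of all genes is given beside a count, the shift has no background to be read against. With limma-voom, epithelial cells went from 3 to 5 and tumor epithelial against stromal cells from 1 to 0. With DESeq2, blood neutrophils went from 3 to 5, blood monocytes from 0 to 1, stromal cells from 3 to 5 and tumor epithelial against stromal cells from 1 to 3. RLE size factors and both RPKM scales left 0 members for tumor epithelial against stromal cells, and the RPKM scales gave 8 instead of 5 for tumor neutrophils against epithelial cells. With all 40 libraries in 1 fit, tumor against blood neutrophils went from 3 to 5, while the share of all genes called went from 17.9% to 32.5%. Of these 5 members, 4 were also tested without the other groups and the other was Timp1. Blood neutrophils went from 3 to 0 in that fit. The added fold threshold left 1 of 3 members in blood neutrophils. With at least 10 counts in every library, fewer genes tested, the epithelial and stromal interaction went from 5 to 2. Without tumor stromal replicates 1 and 2, tumor epithelial against stromal cells went from 1 to 5, while the share of all genes called went from 4.12% to 10.9%.

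With the replicate block, tumor against blood neutrophils went from 3 to 1, epithelial cells from 3 to 5 and tumor epithelial against stromal cells from 1 to 0. In epithelial cells 18.2% of all genes passed with that block and 22.6% without it. Deviations of same-numbered libraries correlated at -0.236 to 0.288, and in no comparison was every pair above 0.1. The titles name the same mouse for 10 of the 48 same-numbered pairs and for no full set of a comparison, so the number was not taken as a pairing and between tumor cell types the mouse was tried as a block instead. With the mouse in the title as a block, tumor neutrophils went from 6 to 2 members against monocytes and from 6 to 0 against stromal cells, and monocytes against stromal cells from 7 to 2. The share of all genes that passed under that block is not given. The causes of these shifts were not tested.

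Leaving out 1 library gave 2 to 5 members for tumor against blood neutrophils, 6 to 8 for monocytes, 2 to 3 for blood neutrophils and 0 for blood monocytes. It gave 3 to 6 for epithelial cells, where the 6 include Reck, removed by the filter on low counts with all libraries, and 2 to 3 for stromal cells. It gave 6 to 7, 5 to 6 and 4 to 7 for tumor neutrophils against monocytes, epithelial and stromal cells, 6 to 8 and 7 to 8 for monocytes against epithelial and stromal cells, and 0 to 2 for epithelial against stromal cells. The interactions gave 2 and 4 to 5. Apart from the fits whose share of all genes is given above, shifts in these counts have no background to be read against. Over the settings other than leaving out 1 library, counts of members stayed within 1.5 times in 147 cases and moved in 22. Over the fits that left out 1 library they stayed in 160 and moved in 16. Depth limits Timp1 and Reck in blood monocytes, Timp1 in neutrophils and Reck in tumor monocytes, where libraries held few counts.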
